A study of Homo sapiens with 9 samples.

Results

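The genes described here are 10 transcription factors known to induce the epithelial-to-mesenchymal transition (EMT): ZEB1, ZEB2, SNAI1, SNAI2, TWIST1, TWIST2, TCF3, TCF4, PRRX1 and FOXC2. They were chosen by name. Of the 36845 genes listed in at least 1 library and the 26636 listed in all 9 libraries, 9 of the 10 factors were in the second set, and FOXC2 was listed in 5 libraries. All 9 averaged 1 FPKM or more and were among the 13014 genes tested. FPKM is the number of fragments per kilobase of exon, scaled to the mapped reads of the library. The exon lengths behind the values run from 1686 bases for SNAI1 to 27961 bases for TCF4. A level set beside that of another gene thus depends in part on the annotated length.

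RNA was sequenced from cells that the labels call BT549, a mesenchymal-type human line from a triple-negative breast tumour, after transfection with an siRNA against the pseudogene transcript WFDC21P or with a control siRNA. The groups were siWFDC21P-1 (n = 3 libraries), siWFDC21P-2 (n = 3) and the control siNC (n = 3), all given 5 µl of a 10 µM siRNA stock and harvested 48 h later. The labels do not say that the replicates came from separate cultures, so p-values measure only the spread between these libraries. Depth was inferred from the steps of the FPKM values and from exon lengths. It was 28.1 to 29.7 M reads in the siWFDC21P-1 libraries, 16.7 to 17.4 M in the siWFDC21P-2 libraries and 16.3 to 29.2 M in the siNC libraries.

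The libraries did not group by siRNA. Over the tested genes other than those of the lists used here, they fell into 3 expression backgrounds, with a Pearson r of 0.929 to 0.986 within a background and 0.673 to 0.753 between backgrounds. Background 1 held siWFDC21P-1 replicates 1 and 2 with siNC replicate 1. Background 2 held siWFDC21P-1 replicate 3 with siNC replicate 2. Background 3 held the 3 siWFDC21P-2 libraries with siNC replicate 3. Each background has a single siNC library. Background 2 went against the label: the epithelial adhesion gene EPCAM was at 228 FPKM in siWFDC21P-1 replicate 3 and at 209 FPKM in siNC replicate 2, where the mesenchymal filament gene VIM was at 0.517 and 0.699 FPKM. Background 1 differed from background 3 as well, with the epithelial keratin gene KRT8 at 93.4 to 232 FPKM in its 3 libraries and at 3.99 to 5.44 FPKM in background 3. Summed over the marker lists, luminal epithelial genes reached 182 to 388, 969 to 1580 and 15.7 to 39.1 FPKM in backgrounds 1, 2 and 3, and mesenchymal-line genes 54.7 to 75.6, 6.69 to 12.7 and 292 to 467 FPKM. The mesenchymal-line list includes the factor ZEB1 itself. These marker lists also share genes, such as CDH1, EPCAM and VIM, with the epithelial and mesenchymal lists used below. Leukocyte genes summed to at most 3.77 FPKM. Endothelial genes reached 20.1 to 26.1 FPKM in background 2, nearly all of it KDR, and at most 4.95 FPKM elsewhere. All 9 libraries are labelled as the same line, and a difference of level between backgrounds cannot be told apart from a difference of cells.

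EMT factors switch epithelial cells towards a motile, mesenchymal state, in development and in carcinoma. ZEB and SNAIL family zinc-finger proteins bind E-box sequences in epithelial promoters and repress genes of cell junctions and polarity, whereas the TWIST proteins are basic helix-loop-helix factors that pair with the E proteins encoded by TCF3 and TCF4. ID proteins bind E proteins and keep them from DNA. The ZEB mRNAs are in turn targets of the miR-200 family of microRNAs, which ZEB proteins repress.

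The mature miR-200 sequences are shown because their seed (bases 2 to 8, in capitals) pairs with the ZEB1 and ZEB2 transcripts. Sequences are from RefSeq (GRCh38.p14). The first 3 share the seed AAUACUG, and the last 2 share AACACUG.
hsa-miR-200b-3p (chr1:1167160-1167181, plus strand): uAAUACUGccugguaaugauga
hsa-miR-200c-3p (chr12:6963742-6963764, plus strand): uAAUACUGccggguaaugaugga
hsa-miR-429 (chr1:1169055-1169076, plus strand): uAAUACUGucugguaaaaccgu
hsa-miR-200a-3p (chr1:1167916-1167937, plus strand): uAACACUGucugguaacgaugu
hsa-miR-141-3p (chr12:6964155-6964176, plus strand): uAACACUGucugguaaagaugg

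The reverse complement of the first seed, CAGTATT, was searched on the transcript strand in the 3′ untranslated region of 1 transcript per gene (GENCODE 29). The site of the other seed, AACACUG, was not searched. ZEB1 held 6 matches in 2552 bases and ZEB2 held 5 in 5373 bases. SNAI2 and TCF4 held 1 match each, and the other 6 factors held 0. Of 19560 genes searched, 15.7% held at least 1 match, 0.0358% held at least 5 and 0.0153% at least 6. A match is a description of the sequence only. Each ZEB1 match is given with its flanks, 5′ to 3′, with the match in capitals and the position of its first base in the untranslated region.
ZEB1, base 372: attgttttatcttatCAGTATTa
ZEB1, base 466: atgctaaatccgcttCAGTATTt
ZEB1, base 895: gtaagtgccatttctCAGTATTt
ZEB1, base 1246: ctgatttttacctatCAGTATTa
ZEB1, base 1316: tgtcttcaaacctggCAGTATTa
ZEB1, base 1967: tcttttcatcattatCAGTATTt

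At the other end of the circuit, the E-box CACCTG and its reverse complement CAGGTG were searched in the 250 bases upstream of RefSeq start sites. Of 35116 start sites, 17.5% held at least 1 match, 2.53% at least 2 and 0.074% at least 5. Of 18 epithelial genes known to be repressed by these factors, 10 were matched by symbol in the promoter table and 8 of them had a match at 1 or more start sites. Of the factors themselves, 6 were in the table and 1 (ZEB1) had a match. A gene with several start sites was counted by its best one, so these counts of genes are not on the scale of the shares of start sites. CRB3 and PATJ, which encode partners in the apical Crumbs polarity complex and are known ZEB1 targets, are shown because their levels are given beside that of ZEB1 in the next paragraphs. E-boxes are in capitals, 5 in CRB3 and 2 in PATJ.
CRB3 (chr19:6464021-6464270, plus strand): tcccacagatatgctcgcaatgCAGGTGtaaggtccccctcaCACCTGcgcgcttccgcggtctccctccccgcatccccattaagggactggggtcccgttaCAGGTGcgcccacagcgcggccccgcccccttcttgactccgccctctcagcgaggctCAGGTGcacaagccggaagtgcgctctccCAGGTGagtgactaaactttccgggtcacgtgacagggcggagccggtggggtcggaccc
PATJ (chr1:61742230-61742479, plus strand): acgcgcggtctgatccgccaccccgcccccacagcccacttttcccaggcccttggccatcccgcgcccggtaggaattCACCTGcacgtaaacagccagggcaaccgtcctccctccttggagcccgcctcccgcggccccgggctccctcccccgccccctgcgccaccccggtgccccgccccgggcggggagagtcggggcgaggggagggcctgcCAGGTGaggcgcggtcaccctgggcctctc

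A factor was called on in a background when every library of it had at least 1 FPKM. In background 1, 6 of 10 factors were on: ZEB1, SNAI1, SNAI2, TWIST2, TCF3 and FOXC2. In background 2, 3 of 10 were on: SNAI1, TWIST2 and TCF3. In background 3 all 9 listed factors were on. SNAI1, TWIST2 and TCF3 were thus on in all 9 libraries, as were 33.9% of the 26636 listed genes. Of the 13014 tested genes, 10804, 11257 and 10722 were on in backgrounds 1, 2 and 3. Nearest to the threshold was ZEB2 in background 1, at 1.05 and 1.18 FPKM in siWFDC21P-1 replicates 1 and 2 and at 0.981 FPKM in siNC replicate 1, not on by the rule. ZEB2 had 680 to 827 reads in background 1. TCF4 was the lowest factor inside the threshold, at 1.16 FPKM (566 reads) in siWFDC21P-2 replicate 1. SNAI2 was at 2.09 FPKM there on 83 reads. The TCF4 values are divided by 27961 bases of exon and the SNAI2 values by 2282. At a threshold of 0.5 FPKM the counts were 7, 4 and 9 in backgrounds 1, 2 and 3, and at 2 FPKM they were 5, 2 and 7. These levels between backgrounds are a description without a test. Fewer cells expressing a gene and less RNA per cell cannot be told apart in bulk RNA.

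**Figure D1:**
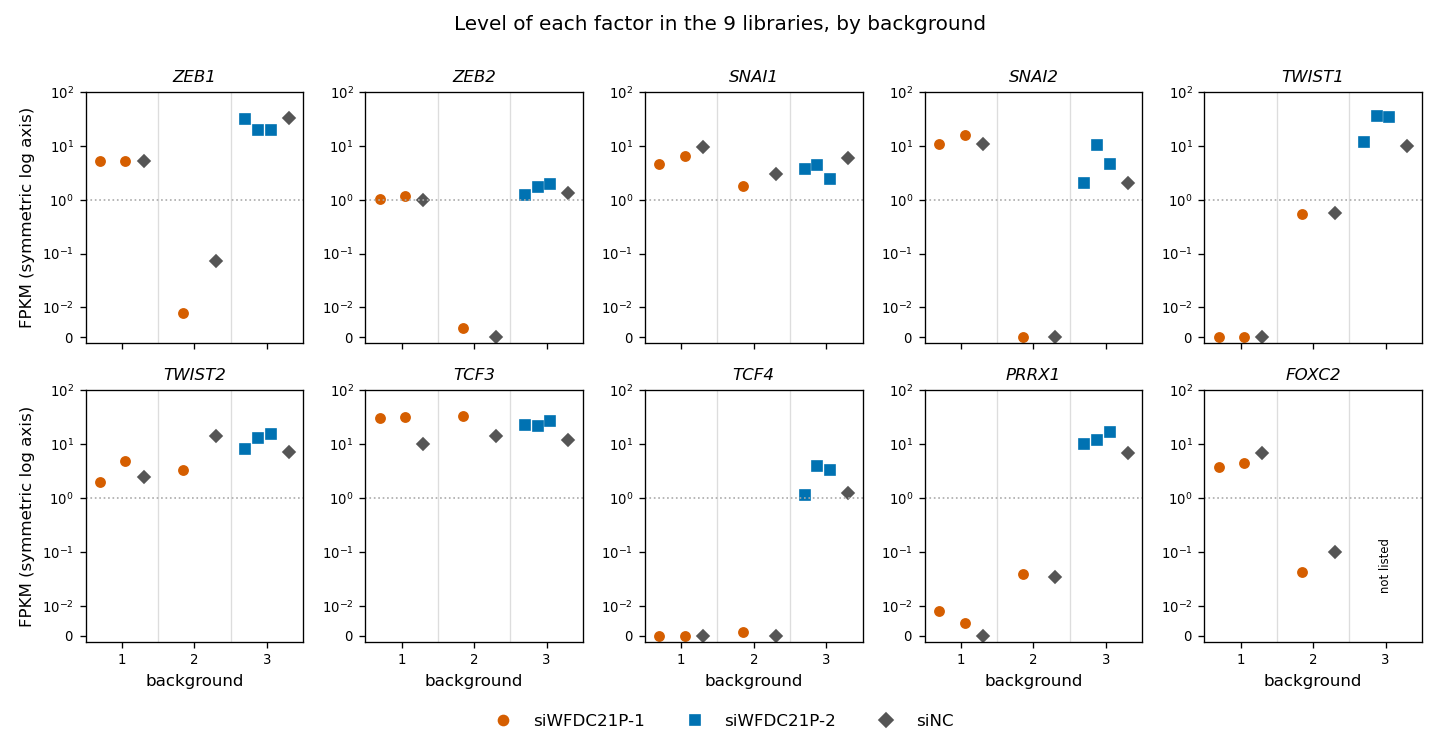
Level of the 10 factors in FPKM (vertical, symmetric log axis that reaches 0) in each library, by background (horizontal). Circles are siWFDC21P-1, squares siWFDC21P-2 and diamonds siNC libraries, with the knockdown libraries left of the siNC library of their background, and the dotted line marks 1 FPKM. TWIST1, TCF4 and PRRX1 lie above the line in background 3 alone, and TCF3 lies higher in all 6 knockdown libraries than in every siNC library.

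The ZEB factors, repressors with a pair of zinc-finger clusters, were near 0 in background 2. ZEB1 (chromosome 10, 31318495 to 31529814, plus strand, GRCh38) was at 5.14 and 5.33 FPKM in siWFDC21P-1 replicates 1 and 2 and at 5.15 FPKM in siNC replicate 1. In background 2 it was at 0.00823 FPKM in siWFDC21P-1 replicate 3 and at 0.0735 FPKM in siNC replicate 2, which is 2 and 18 reads. It was at 32.0, 19.6 and 19.4 FPKM in siWFDC21P-2 replicates 1 to 3 and at 33.1 FPKM in siNC replicate 3. ZEB1 levels thus stood in the order of backgrounds 3, 1 and 2, and the libraries of different backgrounds did not overlap. ZEB2 (chromosome 2, 144364364 to 144524583, minus strand) was lower throughout, with 1.23, 1.76 and 1.98 FPKM in the siWFDC21P-2 libraries and 1.32 FPKM in siNC replicate 3. It had 2 reads in siWFDC21P-1 replicate 3 and 0 reads in siNC replicate 2. The exon length behind the ZEB2 values is 23707 bases, against 8650 for ZEB1. ZEB1-AS1, antisense to the start of ZEB1, ranged over 0.393 to 5.79 FPKM, and without a stated strand its reads cannot be told apart from ZEB1 reads where the exons overlap.

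Genes on both sides of the ZEB1 circuit were at the other extreme in background 2. CDH1 (E-cadherin, the epithelial adhesion protein and best-known target of these repressors) was at 59.6 FPKM in siWFDC21P-1 replicate 3 and at 42.7 FPKM in siNC replicate 2, and at or below 1.16 FPKM in the other 7 libraries. CRB3, with the 5 E-boxes shown above, was at 16.4 and 16.5 FPKM in the same 2 libraries and at or below 0.369 FPKM elsewhere. PATJ was at 11.8 and 12.1 FPKM there, at 2.90 to 4.36 FPKM in background 1 and at 0.0981 to 0.460 FPKM in background 3. GRHL2, an epithelial activator that opposes ZEB1, was at 16.7 and 15.8 FPKM in background 2 and at or below 0.0445 FPKM elsewhere. The precursor genes MIR200B and MIR429 were at 14.6 and 35.6 FPKM in siWFDC21P-1 replicate 3 and at 13.0 and 22.6 FPKM in siNC replicate 2. Elsewhere MIR200B had 2 reads in siWFDC21P-2 replicate 1 and 0 in the other 6 libraries, and MIR429 had 1 read in siNC replicate 3 and 0 in the other 6. FPKM of such short genes are uncertain and do not measure the mature microRNA.

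**Figure D2:**
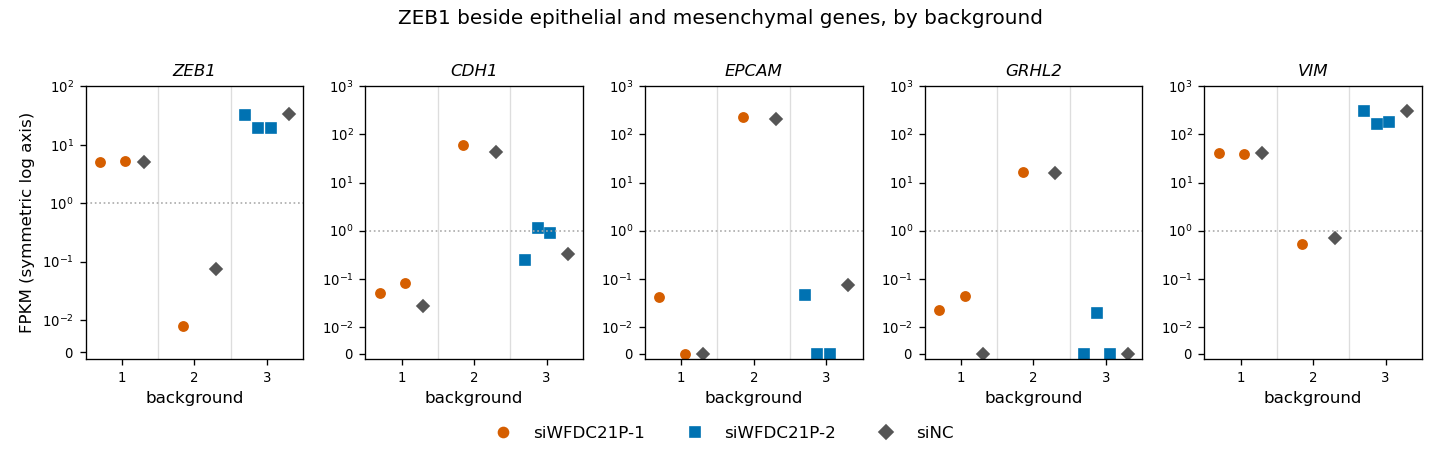
FPKM (vertical, symmetric log axes) of ZEB1, of the epithelial genes CDH1, EPCAM and GRHL2 and of the mesenchymal gene VIM in each library, by background (horizontal), with symbols as in the plot of factor levels. ZEB1 and VIM are lowest in the 2 libraries of background 2, where CDH1, EPCAM and GRHL2 are highest.

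As whole lists, all 18 epithelial genes were on in background 2, 8 in background 1 and 2 in background 3. Their summed level was 110 to 135 FPKM in background 1, 961 to 1070 FPKM in background 2 and 15.1 to 18.6 FPKM in background 3. Of 18 mesenchymal genes known to rise with EMT factors, 9, 6 and 18 were on in backgrounds 1, 2 and 3, with summed levels of 160 to 227, 34.3 to 44.7 and 949 to 1370 FPKM. Of the 13014 tested genes, 10804, 11257 and 10722 were on in these backgrounds. Background 3, with all 9 listed factors on, was thus the highest in mesenchymal and the lowest in epithelial genes. These sums are not independent of the marker sums above, which share genes with them.

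The SNAIL family are zinc-finger repressors that bind the same E-boxes. SNAI1 (SNAIL; chromosome 20, 49982999 to 49988886, plus strand) was on in every library, from 1.84 FPKM in siWFDC21P-1 replicate 3 to 9.57 FPKM in siNC replicate 1. SNAI2 (SLUG; chromosome 8, 48917604 to 48921740, minus strand) was at 11.0 and 16.0 FPKM in siWFDC21P-1 replicates 1 and 2 and at 10.9 FPKM in siNC replicate 1. It had 0 reads in both libraries of background 2. In background 3 it was at 2.09, 10.4 and 4.62 FPKM in siWFDC21P-2 replicates 1 to 3 and at 2.07 FPKM in siNC replicate 3. SNAI2 was thus among the highest factors of background 1, above TCF3 (10.3 FPKM) in siNC replicate 1 and below it in the knockdown libraries. It was not detected in background 2, at an inferred depth of 28.1 and 28.3 M reads.

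Of the TWIST pair, TWIST1 (chromosome 7, 19020991 to 19117672, minus strand) had 0 reads in the 3 libraries of background 1. It was at 0.542 FPKM in siWFDC21P-1 replicate 3 and 0.556 FPKM in siNC replicate 2. In background 3 it reached 11.9, 35.4 and 34.9 FPKM in siWFDC21P-2 replicates 1 to 3, against 10.1 FPKM in siNC replicate 3. TWIST2 (chromosome 2, 238848032 to 238910543, plus strand) was on in every library, from 1.95 FPKM in siWFDC21P-1 replicate 1 to 15.2 FPKM in siWFDC21P-2 replicate 3. Each background therefore had a TWIST transcript, and in backgrounds 1 and 2 only that of TWIST2 passed 1 FPKM.

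Their E-protein partners were divided in the same way. TCF3 (encoding the E proteins E12 and E47; chromosome 19, 1609290 to 1652605, minus strand) was on in all 9 libraries, at 10.3 to 33.2 FPKM. TCF4 (encoding E2-2; chromosome 18, 55222331 to 55664787, minus strand) had 0 reads in background 1 and at most 1 read in background 2. It was at 1.16, 3.95 and 3.35 FPKM in siWFDC21P-2 replicates 1 to 3 and at 1.26 FPKM in siNC replicate 3. TCF12, encoding the E protein HEB, had 0.0113 FPKM in siWFDC21P-1 replicate 3 and 0 in siNC replicate 2, and 5.96 to 9.08 FPKM in the other 7 libraries. TCF3 was thus the only one of the 3 E-protein genes above 1 FPKM in background 2.

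PRRX1, a paired-type homeobox factor of mesenchymal cells (chromosome 1, 170662728 to 170739419, plus strand), was on in the same background as TCF4. It had at most 2 reads in background 1 and at most 9 in background 2. In background 3 it was at 10.2, 12.1 and 16.8 FPKM in siWFDC21P-2 replicates 1 to 3 and at 6.99 FPKM in siNC replicate 3. FOXC2, a forkhead factor (chromosome 16, 86566829 to 86569728, plus strand), was at 3.78 and 4.47 FPKM in siWFDC21P-1 replicates 1 and 2 and at 6.75 FPKM in siNC replicate 1. In background 2 it was at 0.0431 FPKM in siWFDC21P-1 replicate 3 and 0.0998 FPKM in siNC replicate 2, which is 3 and 7 reads. It was not listed in the tables of background 3 and is not analysed there.

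Within each background the factors stood in a different order. In background 1 the medians ran, high to low, TCF3 (30.1 FPKM), SNAI2 (11.0), SNAI1 (6.48), ZEB1 (5.15), FOXC2 (4.47), TWIST2 (2.51) and ZEB2 (1.05). These medians pool knockdown and siNC libraries, and the order depends in part on the exon length used for each factor. The ranges of TCF3 and SNAI2 overlapped, as did those of each neighbouring pair from SNAI1 to TWIST2. In background 2 the order was TCF3 (23.7), TWIST2 (8.81), SNAI1 (2.41) and TWIST1 (0.549), and only the first pair overlapped. That pair stood in this order in siWFDC21P-1 replicate 3 (TCF3 33.2 and TWIST2 3.26 FPKM), and nearly level in siNC replicate 2 (14.2 and 14.4 FPKM). In background 3 ZEB1 (25.8), TWIST1 (23.4), TCF3 (22.5), PRRX1 (11.1) and TWIST2 (10.4) overlapped from one to the next. Below them came SNAI1 (4.13), SNAI2 (3.35), TCF4 (2.31) and ZEB2 (1.54), which overlapped in the same way.

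Libraries given an siRNA against WFDC21P are called knockdown libraries here, whatever the level of the target. Each was set against the siNC library of its own background. The target itself was at 2.04%, 24.9% and 176% of that control in siWFDC21P-1 replicates 1 to 3, where the last rests on 7 reads against 4, and at 60.2%, 48.3% and 30.8% in siWFDC21P-2 replicates 1 to 3. Changes were tested with limma on log2(FPKM + 1), with background in the model and Benjamini-Hochberg adjustment over the 13014 genes. Fold changes on this scale understate the change of low genes. No factor passed an adjusted p of 0.05 in any comparison, and neither did WFDC21P. The limma log2 fold change of WFDC21P was -0.85 for siWFDC21P-1 (adjusted p = 0.422) and -0.94 for siWFDC21P-2 (adjusted p = 0.756). For both siRNAs together it was -0.88 (adjusted p = 0.269). Of all genes tested, 0.0231% passed for siWFDC21P-1 (GANAB, RPL26L1 and CDKN1A), 0.0% for siWFDC21P-2 and 0.00768% for both siRNAs together (GANAB). These genes are named after their values were seen. At an unadjusted p under 0.05, 13.8%, 5.24% and 14.4% of genes passed in these comparisons, 682 of them for siWFDC21P-2. By direction, siWFDC21P-1 had 8.69% higher and 5.06% lower, siWFDC21P-2 had 2.89% higher and 2.35% lower, and both siRNAs together had 9.16% higher and 5.22% lower. Among the 9 factors 2 passed that level in each: TCF3 (higher) and SNAI1 (lower) for siWFDC21P-1 and for both siRNAs, and TCF3 and PRRX1 (both higher) for siWFDC21P-2.

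TCF3 was higher in every knockdown library. It was at 30.1 and 32.0 FPKM in siWFDC21P-1 replicates 1 and 2, against 10.3 FPKM in siNC replicate 1. It was at 33.2 FPKM in siWFDC21P-1 replicate 3, against 14.2 FPKM in siNC replicate 2. In background 3 it was at 23.0, 21.9 and 26.9 FPKM in siWFDC21P-2 replicates 1 to 3, against 11.9 FPKM in siNC replicate 3. The lowest knockdown library lay above the highest siNC library, although the backgrounds differed widely in other factors. As a percent of its own control TCF3 was at 292% (277 to 308%), 311% (295 to 328%) and 234% (223 to 246%) in the siWFDC21P-1 libraries. In the siWFDC21P-2 libraries it was at 193% (180 to 207%), 184% (171 to 197%) and 226% (211 to 242%). These intervals are exact 95% binomial (Clopper-Pearson) intervals on 1183 to 5780 recovered reads per library and cover counting error only. At least 1.5 times the own control in all 6 libraries was reached by 61 tested genes, or 0.469%.

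In the limma fit the log2 fold change of TCF3 was 1.36 ± 0.17 (SE) for siWFDC21P-1 (adjusted p = 0.0618), the 11th smallest p of 13014. For siWFDC21P-2 it was 0.94 ± 0.21 (adjusted p = 0.756). For both siRNAs it was 1.20 ± 0.14 (adjusted p = 0.0969), the 2nd smallest p. TCF3 missed the threshold in all 3 fits. It passed without siWFDC21P-2 replicate 1, with limma adjusted p = 0.0343, 0.0439 and 0.0213 in the same order. Those fits let 153, 902 and 204 of the 13014 genes pass. Without siNC replicate 1 the change was 1.17 for siWFDC21P-1 (limma adjusted p = 0.52) and 1.03 for both siRNAs (adjusted p = 0.649). Without either library of background 2 the change was 1.5 for siWFDC21P-1 (limma adjusted p = 0.182 without siNC replicate 2) and 1.21 for both siRNAs (adjusted p = 0.421). The 2 siRNAs differed by -0.42 ± 0.27 (siWFDC21P-2 minus siWFDC21P-1, limma adjusted p = 0.83). In the annotation the only gene overlapping TCF3 is the small nuclear RNA pseudogene RNU6-1223P.

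SNAI1 was lower in every knockdown library. It was at 4.55 and 6.48 FPKM in siWFDC21P-1 replicates 1 and 2, against 9.57 FPKM in siNC replicate 1. It was at 1.84 FPKM in siWFDC21P-1 replicate 3, against 2.98 FPKM in siNC replicate 2. In background 3 it was at 3.79, 4.47 and 2.42 FPKM in siWFDC21P-2 replicates 1 to 3, against 5.93 FPKM in siNC replicate 3. Knockdown and siNC libraries overlapped when taken across backgrounds and did not overlap within any of them. SNAI1 stood at 47.6% (40.4 to 55.9%), 67.7% (58.6 to 78.1%) and 61.7% (46.7 to 81.1%) of its own control in the siWFDC21P-1 libraries. In the siWFDC21P-2 libraries it stood at 63.8% (49.7 to 81.7%), 75.3% (59.2 to 95.6%) and 40.7% (30.3 to 54.2%). All 6 counting intervals lay below 100%. The limma log2 fold change was -0.62 ± 0.25 for siWFDC21P-1 (adjusted p = 0.335), -0.63 ± 0.31 for siWFDC21P-2 (adjusted p = 0.756) and -0.62 ± 0.18 for both siRNAs (adjusted p = 0.223). Without siNC replicate 2 the last was -0.67.

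TCF3 and PRRX1 were higher in all 6 knockdown libraries, as were 10.8% of tested genes, and SNAI1 was lower in all 6, as were 7.92%. For PRRX1 the count has little behind it outside background 3, where the reads were 2, 1 and 9 in the siWFDC21P-1 libraries against 0 and 8 in siNC replicates 1 and 2. No median over the factors is given, because TWIST1, TCF4 and PRRX1 met the minimum level through background 3 and had next to no reads to compare elsewhere. The siWFDC21P-1 values rest on siNC replicates 1 and 2 and the siWFDC21P-2 values on siNC replicate 3, and the comparison of both siRNAs shares its libraries with each.

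**Figure D3:**
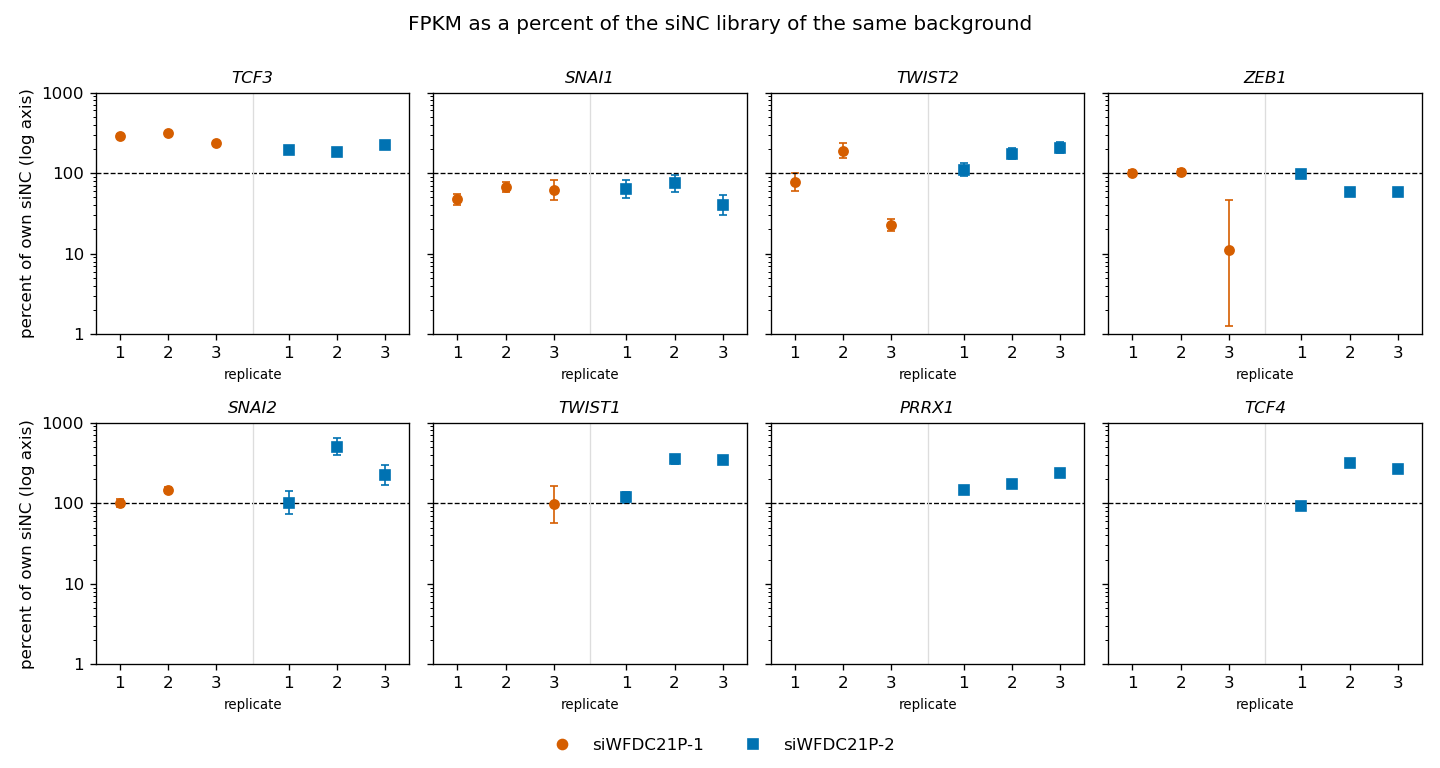
FPKM of 8 factors in each knockdown library as a percent of the siNC library of the same background (vertical, log axis), by replicate (horizontal), with circles for siWFDC21P-1 and squares for siWFDC21P-2. Bars are exact 95% binomial intervals on recovered reads, the dashed line is 100%, and pairs of libraries with fewer than 20 reads together are left out. TCF3 lies above the line and SNAI1 below it in all 6 libraries, and among the siWFDC21P-2 libraries replicate 1 lies nearest to the line for TWIST1, TCF4, SNAI2, TWIST2 and ZEB1.

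The other factors that were on in background 3 were nearer to the control in siWFDC21P-2 replicate 1 than in replicates 2 and 3. TWIST1 was at 118%, 351% and 345% of siNC replicate 3 in siWFDC21P-2 replicates 1 to 3. TCF4 was at 92.2%, 313% and 265%. SNAI2 was at 101%, 505% and 223%. Replicate 1 was thus at 92.2 to 118% of the control for these 3 factors, while replicates 2 and 3 were at 223% or more. TWIST2 was at 110%, 175% and 207%, PRRX1 at 146%, 172% and 240% and ZEB2 at 93.7%, 134% and 150%. ZEB1 went the other way, at 96.8%, 59.2% and 58.7% of its control. Over all 13014 tested genes, listed genes included, siWFDC21P-2 replicate 1 had an r of 0.985 with siNC replicate 3, against 0.927 and 0.934 for replicates 2 and 3. In replicate 1 the counting interval lay away from 100% for TCF3, SNAI1, PRRX1 (135 to 159%) and TWIST1 (102 to 137%), and held 100% for the other 5 factors. The summed fibroblast markers moved with replicates 2 and 3 as well: they were at 55.8 to 138 FPKM in the siWFDC21P-2 libraries and 49.1 FPKM in siNC replicate 3. Most of this was THY1, at 49.5, 90.3 and 110 FPKM in siWFDC21P-2 replicates 1 to 3 and 43.6 FPKM in siNC replicate 3, whereas PDGFRB and DCN stayed at or below 0.0921 FPKM there. All 3 tested markers, THY1, COL1A1 and LUM, were higher in all 3 siWFDC21P-2 libraries (26.9% of all tested genes). Their log2 fold changes were 0.84, 1.66 and 1.23 (limma adjusted p = 0.756 for each). The part of the fibroblast markers in the result was not tested.

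The limma log2 fold changes for siWFDC21P-2 were 1.21 ± 0.54 (SE) for TWIST1, 0.78 ± 0.27 for PRRX1, 0.67 ± 0.42 for TCF4, 0.93 ± 0.61 for SNAI2, 0.60 ± 0.64 for TWIST2, 0.19 ± 0.22 for ZEB2 and -0.50 ± 0.30 for ZEB1. All had a limma adjusted p above the threshold, at 0.756 to 0.808. Without siWFDC21P-2 replicate 1, TWIST1 was at 1.70 ± 0.17 (limma adjusted p = 0.00809) and TCF4 at 1.04 ± 0.17 (adjusted p = 0.0233). PRRX1 was then at 0.93 (adjusted p = 0.06) and ZEB1 at -0.73 (adjusted p = 0.0544). That fit rests on 2 knockdown libraries and 1 control in background 3, takes its spread from all backgrounds, and let 902 of the 13014 genes pass. TWIST1, TCF4 and PRRX1 were not on in backgrounds 1 and 2 and hardly vary there, so their standard errors and p-values in the fits of siWFDC21P-2 can understate the spread in background 3. The part of replicate 1 in these results was not tested further.

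For siWFDC21P-1, ZEB1 was level with its control in background 1, at 99.8% (92.3 to 108%) and 103% (95.8 to 112%). In background 2 it was at 11.2% (1.26 to 46.7%) in replicate 3, on 2 reads against 18. SNAI2 was at 101% (90.6 to 112%) and 146% (133 to 161%) in replicates 1 and 2. TWIST2 had no common direction, at 77.7%, 191% and 22.7% of the own control in siWFDC21P-1 replicates 1 to 3. Its fitted change was -0.66 ± 0.51 (limma adjusted p = 0.608), and it was 0.24 without background 2. FOXC2 was at 56.0% (48.1 to 65.1%) and 66.3% (57.5 to 76.4%) in replicates 1 and 2. In replicate 3 it was at 43.1% (7.20 to 189%), where no difference was detectable at this depth. In a limma fit of the 13138 genes of the 5 libraries that list FOXC2, its log2 fold change was -0.37 ± 0.21 (adjusted p = 0.417).

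**Figure D4:**
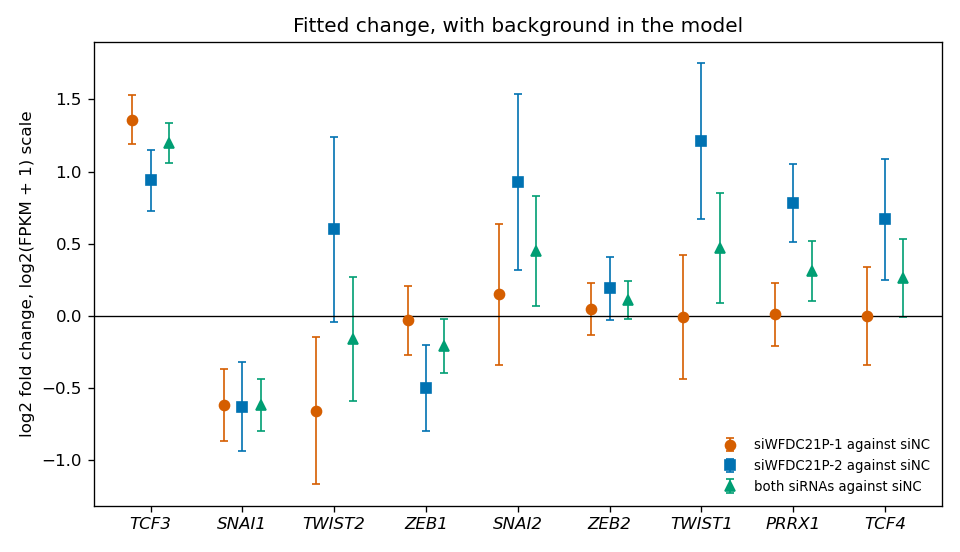
Fitted log2 fold change of 9 factors on the log2(FPKM + 1) scale (vertical) in the 3 comparisons with siNC, with bars of 1 standard error from limma. TCF3 lies at 0.94 to 1.36 and SNAI1 at -0.63 to -0.62, whereas values near 0 for TWIST1, PRRX1 and TCF4 under siWFDC21P-1 (circles) come from backgrounds where these genes had 32 reads or fewer.

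The difference between the siRNAs (siWFDC21P-2 minus siWFDC21P-1) was tested for the same 9 factors, and none passed, the largest being TWIST2 at 1.26 ± 0.82 and TWIST1 at 1.21 ± 0.69 (limma adjusted p = 0.83 for both). For TWIST1, TCF4 and PRRX1 the siRNA and the background cannot be told apart, because siWFDC21P-2 was used in background 3 alone and these genes were not on elsewhere.

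Among the genes around the factors, no member of any list passed the adjusted threshold in the 3 comparisons. Of 8 E-protein partners and ID inhibitors, 5 were tested, and 4 of them were higher in all 3 siWFDC21P-2 libraries (26.9% of all tested genes) and 1 was lower (26.0%). The ID genes followed the spread between the siWFDC21P-2 replicates. ID3 was at 59.8, 265 and 128 FPKM in siWFDC21P-2 replicates 1 to 3, against 54.8 FPKM in siNC replicate 3. ID1 was at 58.7, 212 and 111 FPKM, against 57.3 FPKM. ID2 was at 6.21, 21.2 and 30.2 FPKM, against 4.76 FPKM. As for TWIST1 and SNAI2, replicate 1 lay next to the control. For siWFDC21P-1, 0 of the 5 were higher in all 3 libraries (27.9% of all tested genes) and 1, ID2, was lower (20.7%). ID2 was at 17.3 and 29.2 FPKM in siWFDC21P-1 replicates 1 and 2 against 40.5 FPKM in siNC replicate 1. In replicate 3 it was at 9.16 FPKM against 16.5 FPKM in siNC replicate 2. ID1 was at 198 and 226 FPKM in siWFDC21P-1 replicates 1 and 2 against 181 FPKM in siNC replicate 1, and at 1.79 FPKM in replicate 3 against 18.5 FPKM in siNC replicate 2.

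Corepressors and chromatin enzymes that work with SNAIL and ZEB proteins were on in nearly every background (15, 15 and 14 of 15). So were most tested genes (10804, 11257 and 10722 of 13014). In all 6 knockdown libraries 1 of the 15 was higher (10.8% of all tested genes) and 2 were lower (7.92%). The lower ones were CTBP2 and LIMD1, with limma log2 fold changes for both siRNAs of -0.59 and -0.64 (adjusted p = 0.245 and 0.252). The higher one was the histone deacetylase gene HDAC1. It was at 57.6, 48.6 and 78.8 FPKM in siWFDC21P-1 replicates 1 to 3 and 52.4, 70.6 and 70.2 FPKM in siWFDC21P-2 replicates 1 to 3. The siNC libraries had 31.6, 48.2 and 29 FPKM. Its limma log2 fold change for both siRNAs was 0.87 (adjusted p = 0.107). PRMT1, an arginine methyltransferase, was at 0.40 (adjusted p = 0.377) and KDM1A, the histone demethylase LSD1, at 0.07 (adjusted p = 0.806).

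Of the regulators of SNAIL, SLUG, TWIST and ZEB protein stability, 14 of 15 were tested. For siWFDC21P-1, 7 were higher in all 3 libraries (27.9% of all tested genes) and 1 lower (20.7%). For siWFDC21P-2, 1 was higher in all 3 libraries (26.9%) and 5 lower (26.0%). CSNK1A1 (a casein kinase), GSK3B (the kinase that marks SNAIL for destruction) and COPS2 (a COP9 signalosome subunit) had log2 fold changes of 0.01, 0.06 and -0.08 for both siRNAs in limma (adjusted p = 0.853, 0.936 and 0.796).

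Of 18 epithelial genes, 0 were higher (10.8% of all tested genes) and 1 lower (7.92%) in all 6 knockdown libraries, and of 18 mesenchymal genes 3 were higher and 3 lower. For siWFDC21P-1, 3 epithelial genes were higher (27.9%) and 1 lower (20.7%) in all 3 libraries, and 4 mesenchymal genes were higher and 6 lower. For siWFDC21P-2, 2 epithelial genes were higher (26.9%) and 9 lower (26.0%) in all 3 libraries, in a background where 2 of the 18 were on, and 9 mesenchymal genes were higher and 5 lower. EPCAM, CLDN3 and DSP had log2 fold changes for both siRNAs of 0.01, -0.33 and 0.24 in limma (adjusted p = 0.97, 0.513 and 0.469), and CDH1 of 0.29 (adjusted p = 0.512). VIM was at -0.28 (adjusted p = 0.579), COL1A2 at 0.62 (adjusted p = 0.529) and COL5A2 at 0.88 (adjusted p = 0.22). By replicate these genes went in different directions. COL1A2 was at 80.2, 272 and 224 FPKM in siWFDC21P-2 replicates 1 to 3, against 56.2 FPKM in siNC replicate 3. VIM was at 309, 162 and 178 FPKM, against 310 FPKM, or 99.6%, 52.3% and 57.4% of the control. CDH1, below 1 FPKM in all but 1 of these libraries, was at 73.8%, 354% and 270% of the control, on 26, 120 and 94 reads against 33.

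Inputs of the TGF-beta pathway, a classical inducer of these factors, included 9 tested genes. In all 6 libraries 1 was higher (10.8% of all tested genes) and 1 lower (7.92%). TGFBR2, TGFBR1 and TGFB1 had limma log2 fold changes of -0.01, -0.14 and -0.03 for both siRNAs (adjusted p = 0.992, 0.843 and 0.957). The common mediator SMAD4 was at 0.0705 FPKM in siWFDC21P-1 replicate 3 and 0.0269 FPKM in siNC replicate 2, and at 3.02 to 4.23 FPKM in the other 7 libraries. Other EMT-linked factors were led by FOSL1, TEAD1 and SOX9. FOSL1 was at 96.2 to 208 FPKM in background 3, at 10.8 to 15.7 FPKM in background 1 and at 0.452 and 0.599 FPKM in background 2, the same order as ZEB1. SOX9 was at 81.5 and 73.7 FPKM in background 2, at 3.33 to 13.8 FPKM in background 3 and at 0 in background 1. TEAD1 was on in all 9 libraries, at 12 to 44.7 FPKM.

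The genes whose level over the 9 libraries was most like that of ZEB1 were TRIQK, ZC2HC1A and TMEM218 (Pearson r of log2(FPKM + 1) of 0.997, 0.997 and 0.994). For SNAI2 they were NLGN4X, PHYHD1 and GABRE (0.994, 0.986 and 0.973), and for TCF3 they were TSC22D1, CSE1L and RAP2C (0.957, 0.956 and 0.954). For ZEB1 and SNAI2 the likeness mainly follows the backgrounds, which the libraries share. TCF3 instead separated knockdown from siNC libraries. Its nearest genes were picked for their likeness to it over these same libraries, so a like separation follows largely from that choice. TSC22D1 was at 17.7 to 26.5 FPKM in the 6 knockdown libraries and 12.1 to 15.8 FPKM in the siNC libraries. CSE1L was at 98.3 to 128 FPKM in the knockdown libraries and 74.5 to 87.6 FPKM in the siNC libraries. These are descriptions over 9 libraries, without a test.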

How the data were processed

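The authors deposited FPKM values per Ensembl gene for each library. Per the submitters' processing notes, the tools were HTSeq 0.6.0, HISAT2 2.1.0 and Bowtie2 2.2.3 with build hg38, and no role is given. Strandedness is not given in the sources used here. The tables have 2 naming styles: background 3 holds one (29104 genes), backgrounds 1 and 2 the other (34377 genes). Whole reads were recovered from FPKM steps and GENCODE 29 exon lengths for 94.7% of the 26636 common genes (tolerance 0.02 reads).

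Genes averaging 1 FPKM or more entered limma 3.58.1 (under R 4.3.3) on the log2(FPKM + 1) scale, with trended empirical Bayes variances, group and background as terms, and Benjamini-Hochberg adjustment at 0.05. Backgrounds came from average-linkage clustering on 1 minus r, split at a height of 0.15. No pair of the 36 library pairs was identical. The factors, lists, markers and tests were chosen with earlier results of these data known. All factors, WFDC21P, CDH1, VIM, EPCAM, the 3 highest members of each list and the 3 genes most like ZEB1, SNAI2 and TCF3 were to be named. PATJ, CRB3, GRHL2, MIR200B, MIR429, TCF12, SMAD4, KRT8, CTBP2 and LIMD1 were added after their values were seen. Alternatives covered the pseudocount, the low-value filter, the covariates, the replicate block, scaling, limma-voom on recovered reads and leaving out each library.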

Additional observations from a re-analysis of the deposited data

How the results depend on the processing

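The count of genes passing for siWFDC21P-1 (3) was 0 with no filter, 26 with a mean of at least 5 FPKM, 0 with naming style in place of background, 0 with neither term, 26 with limma-voom and 0 with the 5 libraries of the first naming style alone, an alternative chosen after seeing the data. It was 0 to 153 leaving out 1 library. For siWFDC21P-2 (0) it was 17 with no filter and 0 to 902 leaving out 1 library. For both siRNAs (1) it was 2 with a pseudocount of 0.1, 0 with no filter, 0 with naming style, 0 with neither term, 0 with upper-quartile scaling and 0 to 204 leaving out 1 library. The highest of each range is without siWFDC21P-2 replicate 1. Without siNC replicate 3, siWFDC21P-2 could not be fitted. Replicate numbers did not pair the libraries (same-number correlations of -0.683 to 0.667, 2 of 9 above 0.1, 1 of 9 libraries closest to its own number), and with the replicate number as a block 0 genes passed in each of the 3 comparisons. SNAI1 and TCF3 kept their direction in every alternative run. TCF3 for siWFDC21P-1 ranged over limma adjusted p = 0.0343 to 0.587, and it also passed with a mean of at least 5 FPKM (0.0446) and with limma-voom (0.0429). ZEB1 for siWFDC21P-1 (-0.03) was 0.40 with naming style, 0.15 with the replicate block and -0.09 to 0.02 leaving out 1 library. ZEB1 for siWFDC21P-2 (-0.50) was 1.98 with neither term. Leaving out 1 library, TWIST2 was -1.85 to 0.24 for siWFDC21P-1 and -0.66 to 0.43 for both siRNAs. The reversals of ZEB1 and TWIST2 on leaving out a library arose with either library of background 2 removed. The cause was not tested. At most 9 reads in the libraries where PRRX1 and TCF4 were not on leave their change there undetectable.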
